A study of Homo sapiens with 2 samples.

Results

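Histone acetyltransferase coactivators transfer acetyl groups to lysines of histone tails, a mark known to accompany active promoters and enhancers, and they are brought to chromatin by transcription factors. This account concerns the genes that encode 10 of them, among 19970 protein-coding genes on chromosomes 1 to 22 and X. EP300 and CREBBP encode the paralogous p300 and CBP, which are known for acetylating histones at enhancers. KAT2A (GCN5) and KAT2B (PCAF) are the catalytic subunits of the SAGA and ATAC complexes. KAT5 (TIP60), KAT6A (MOZ), KAT7 (HBO1) and KAT8 (MOF) belong to the MYST family. NCOA2 and NCOA3 encode p160 coactivators of nuclear receptors, which recruit p300 and CBP. The genes were chosen by name and by their peak calls and pileups in these same 2 libraries, which were known beforehand. The values below therefore describe them and test nothing.

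The peaks came from ChIPmentation, chromatin immunoprecipitation with tagmentation of the bound chromatin, in PANC-1, an established line from a human pancreatic ductal adenocarcinoma. There were 2 samples. In 1 the cells received DMSO, the vehicle, and in the other inflachromene, a compound that binds the chromatin proteins HMGB1 and HMGB2. Cells of both were crosslinked first with EGS (15 mM) and then with formaldehyde (1%). Which protein was immunoprecipitated, and how much inflachromene was given for how long, the sources used here do not say. With 1 sample per treatment no difference below has a replicate check, and each compares these 2 libraries, not the conditions.

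The DMSO list held 15186 peaks on these chromosomes and the inflachromene list 10836. The unit used is the pileup, the number of fragments over a peak's summit, recovered from the deposited fold enrichment and p-value. Its intervals are exact 95% Poisson intervals, and ratios of inflachromene to DMSO pileup carry exact conditional 95% intervals. Both cover counting error only, as for a count at a fixed place, and do not allow for the choice of the summit. The inflachromene library was inferred to hold 0.964 times as many fragments as the DMSO library. Over 7518 genes with a peak at the same position in both lists, the median ratio was 0.822, so a ratio near that value is the general one here. Of 7 ductal and epithelial markers, both lists held an end peak at KRT8, KRT18 (1 shared peak) and SOX9, the DMSO list alone at KRT19 and EPCAM, and neither at KRT7 and CDH1. None of the 10 acinar, islet and immune markers had a peak, and of 4 fibroblast and endothelial markers COL1A1 had one in DMSO alone.

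Of the 10 coactivator genes, 8 had a peak summit within 1.5 kb of an annotated end in DMSO and the same 8 in inflachromene. Over all protein-coding genes the shares were 47.4% in DMSO, 39.5% in inflachromene and 37.9% in both. The 8 were EP300, CREBBP, KAT2B, KAT5, KAT6A, KAT7, KAT8 and NCOA3. No member had an end peak in 1 list alone, against 9.54% of all genes in DMSO alone and 1.67% in inflachromene alone. NCOA2 had its peak inside the gene, and KAT2A had none in either list. The end summits farthest from a gene were those past the other end of KAT5 (1151 bp in DMSO, 1043 bp in inflachromene) and before EP300, and the nearest summit left out was 5607 bp from KAT5, with 27 fragments in DMSO. In all, 10 end peaks and 2 peaks inside genes were called in DMSO, and 11 and 2 in inflachromene.

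**Figure D1:**
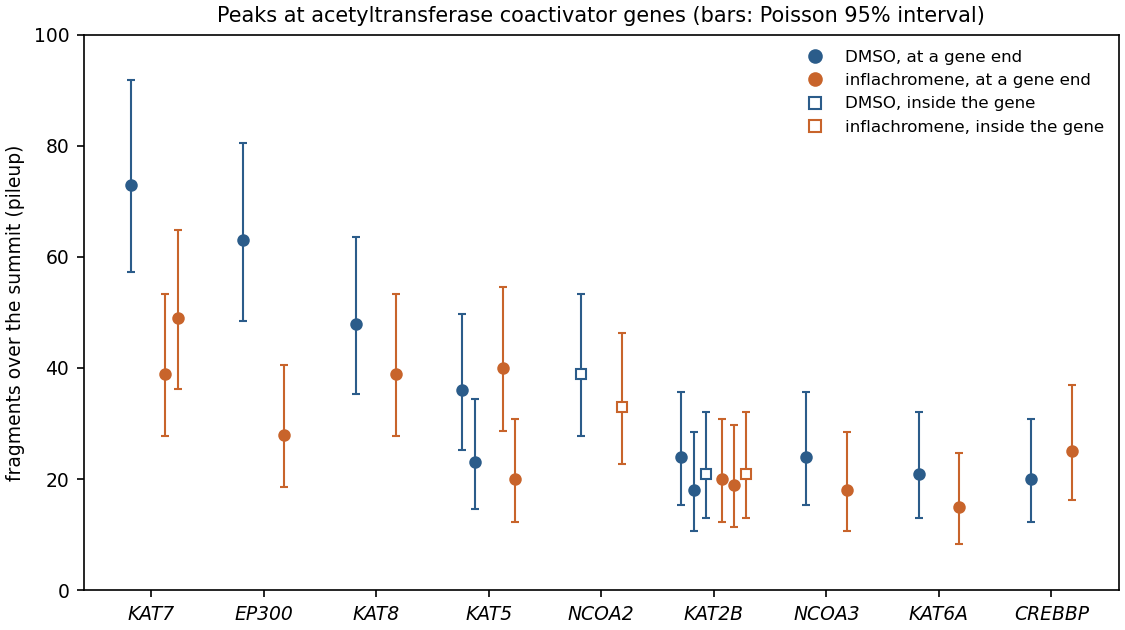
Fragments over the summit (vertical axis, from 0) of every peak called at an end of a coactivator gene (filled circles) or inside it (open squares), in DMSO (blue) and inflachromene (orange), with Poisson 95% intervals. EP300 stands at 63 and 28 fragments with intervals that do not overlap, CREBBP stands at 20 and 25, and KAT2A is not drawn because it had no peak.

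The peaks were spread over a wide range of strength. At each gene's position with the most fragments, the DMSO pileup ran from 20 at CREBBP to 73 at KAT7, with a median of 30.0 beside 32.0 over all genes with a matched peak. In inflachromene it ran from 15 at KAT6A to 49 at KAT7, with a median of 26.5 beside 26.0. The ratio was under 1 at 6 of the 8 genes and over 1 at 2, CREBBP and KAT5, where 77.3% of all matched genes were under 1 and 18.3% over 1. The median ratio of the 8 was 0.781, and 0.812 without EP300. At 1 of the 8, EP300, the pileup was lower by 1.5-fold or more, beside 18.7% of all matched genes, and at none was it higher by as much, beside 1.17%. Fold enrichment, described for EP300 below, gave the same count: EP300 was lower by 1.5-fold or more, beside 10.4% of all matched genes, and no member was higher, beside 0.585%.

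**Figure D2:**
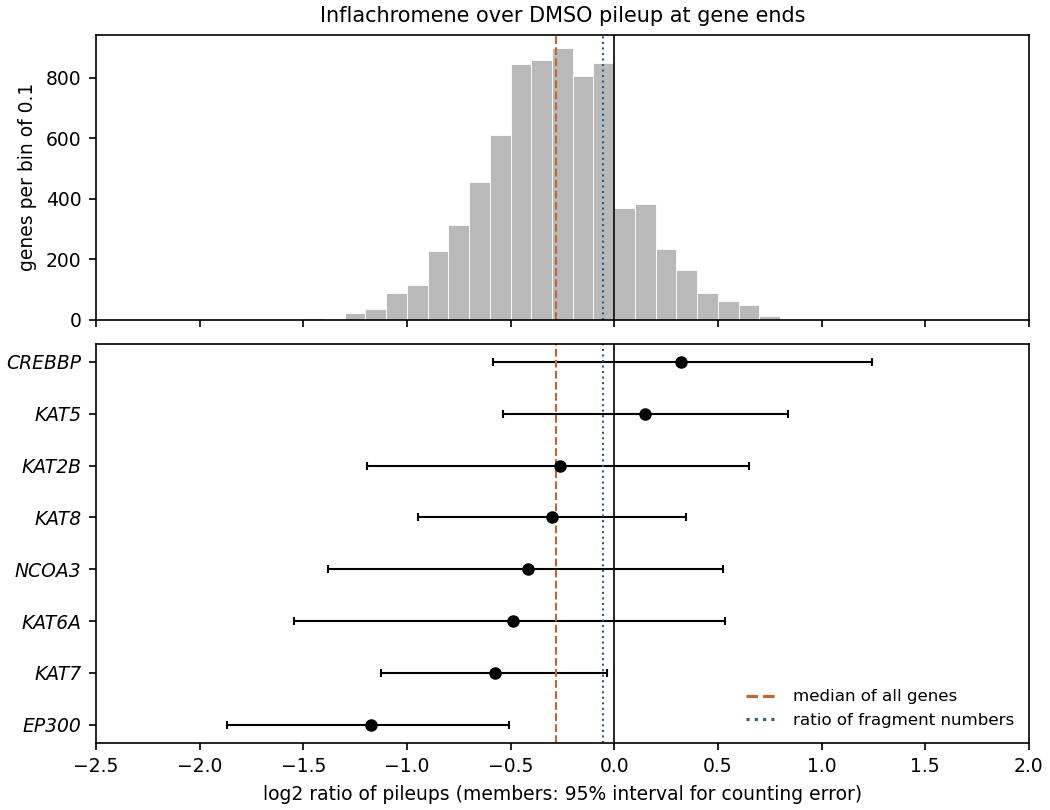
Top, number of genes (vertical axis) by log2 ratio of inflachromene to DMSO pileup (horizontal axis, bins of 0.1) over 7518 genes with a matched end peak. Bottom, the same ratio for the 8 coactivator genes, with 95% intervals for counting error; the dashed line is the median of all genes, 0.822, and the dotted line the ratio of fragment numbers, 0.964. EP300 lies at 0.444, left of the other 7 genes, and CREBBP at 1.25, on the far right.

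EP300 on chromosome 22 (gene at 41092592 to 41180077, build GRCh38.p14, plus strand) had a single peak in each library, and both lay before the gene. The DMSO peak (41091356 to 41091875) held 63 fragments at its summit (48.4 to 80.6) and the inflachromene peak (41091420 to 41091854) held 28 (18.6 to 40.5). The intervals of the 2 libraries did not overlap. The ratio was 0.444 (0.274 to 0.704), a 2.25-fold lower pileup, and its interval lay below 0.964. Of the 7518 genes, 54 (0.718%) had a lower ratio. Among the 784 genes whose summed pileup was within 10% of that of EP300, a comparison chosen after the values were seen, the median ratio was 0.808 and 2 genes were lower. These were PJVK and PRKRA, which had the same pileups, 61 and 27 fragments, and so may stand for 1 shared peak.

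The deposited fold enrichment of EP300, which divides the pileup plus 1 by a local background plus 1, was 16.3 in DMSO and 9.19 in inflachromene. Its ratio of 0.564 is less extreme than that of the pileups, with 1.96% of all genes lower. The local background was 2.93 fragments in DMSO and 2.15 in inflachromene, a ratio of 0.736 beside a median of 0.948 over all matched genes. That background was read as coming from a window of 10 kb. Whether it takes in the peak's own fragments is not known, since the sources used here name no control. The background's part in the result was not tested.

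The EP300 peak also lay apart from the start of the gene. Its summit was 1004 bp before the annotated start in DMSO and 934 bp before it in inflachromene. The RefSeq promoter window, which runs from 250 bases before the start to 50 after it, held no base of either peak. For comparison, the DMSO summit was taken at each gene's position with the highest summed pileup. Of 7260 genes with that summit within 1.5 kb of a listed start, 87.1% had it within 300 bp. In 4.19% it lay more than 500 bp before the start, and in 1.71% 900 bp or more before. The place of the summit decides how EP300 is counted. With a window of 1000 bp it would be a gene with a peak in inflachromene alone, although the DMSO peak was the stronger, and with 500 bp it would have none in either list.

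CREBBP on chromosome 16 (3725054 to 3880713, minus strand) differed from its paralog in strength, place and ratio. Its peak held 20 fragments in DMSO (12.2 to 30.9) and 25 in inflachromene (16.2 to 36.9), so the intervals overlapped. The ratio was 1.25 (0.667 to 2.37), and 7145 of the 7518 matched genes had a lower one. Fold enrichments were 6.35 and 8.51. The summits lay 117 and 100 bp before the start, and the DMSO pileup exceeded that of 14.6% of the matched genes, where EP300 exceeded 88.8%. The EP300 ratio was 0.356 times the CREBBP ratio (exact conditional interval 0.159 to 0.793); the 2 genes are the lowest and the highest of the 8, which by itself makes that difference large.

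Of the GNAT members, KAT2A had no peak, and KAT2B reached 24 fragments in DMSO, as NCOA3 did. KAT2A on chromosome 17 (42113111 to 42121367) had no peak within the gene or within 1.5 kb of it, and the nearest one in either library was more than 33 kb from the gene. KAT2B on chromosome 3 (20040446 to 20154404, plus strand) had a pair of peaks around its start in each library. Before the start they held 24 fragments in DMSO (15.4 to 35.7) and 20 in inflachromene (12.2 to 30.9), a ratio of 0.833 (0.437 to 1.57). After the start they held 18 fragments in DMSO, with the summit at 148 bp, and 19 in inflachromene, with the summit at 411 bp. The second pair did not share a base (20040534 to 20040728 against 20040746 to 20040978), so by overlap each counts as found in 1 list alone, at nearly the same pileup. The peak inside KAT2B, 14316 bp from the start in DMSO and 14406 bp in inflachromene, held 21 fragments in both (ratio 1.00, 0.520 to 1.92).

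KAT7 and KAT5, both of the MYST family, had the widest DMSO peaks among the members. KAT7, the catalytic subunit of the HBO1 complex, lies on chromosome 17 (49788681 to 49835026, plus strand) and had the strongest peak of the members. In DMSO a single peak of 966 bp (49788409 to 49789374) held 73 fragments (57.2 to 91.8) at a summit 477 bp after the start. In inflachromene the same stretch carried 2 peaks, one with 39 fragments (27.7 to 53.3) at 86 bp before the start and one with 49 (36.3 to 64.8) at 534 bp after it. At the stronger position the ratio was 0.671 (0.458 to 0.977), just short of 1.5-fold, and 18.8% of all matched genes had a lower one. Neither inflachromene peak covers 50% of the wide DMSO peak, so under a rule of 50% reciprocal overlap KAT7 has no matched peak and no ratio. That summit was 48 bp from an end of FAM117A in DMSO, so it cannot be credited to KAT7 alone.

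KAT5, the catalytic subunit of the NuA4/TIP60 complex, lies on chromosome 11 (65712018 to 65719604, plus strand). Its peak was 860 bp wide in DMSO, with 36 fragments (25.2 to 49.8), and 880 bp in inflachromene, with 40 (28.6 to 54.5). The ratio was 1.11 (0.690 to 1.79), but it compares different places within the peak. The summit lay 30 bp before the gene's start in DMSO and 566 bp after it in inflachromene, 596 bp apart, where the median shift over all matched genes was 36.0 bp and 0.266% of them shifted by over 500 bp. A second peak, past the other end of KAT5, held 23 fragments in DMSO and 20 in inflachromene (ratio 0.870, 0.453 to 1.66). It overlapped the promoter window of RNASEH2C, the next gene.

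**Figure D3:**
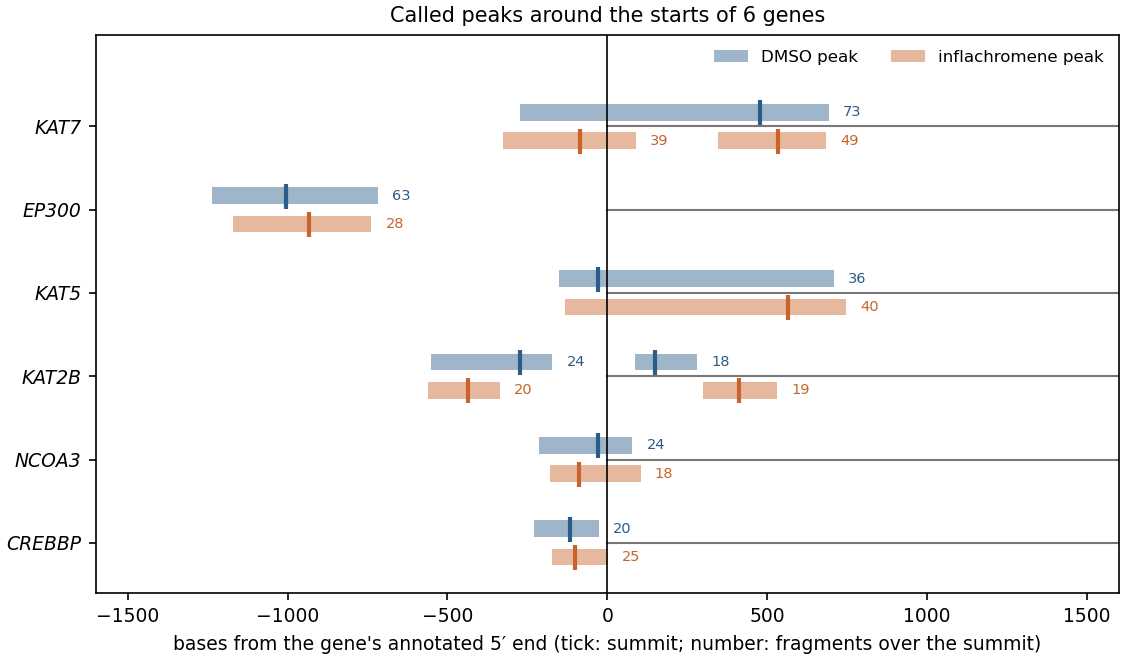
Peaks called in DMSO (blue bars) and inflachromene (orange bars) around the annotated 5′ end of 6 coactivator genes, in bases (horizontal axis), with each summit as a tick and its pileup as a number; the grey line marks the gene. The EP300 peaks stand wholly before the gene, with summits at −1004 and −934, the wide KAT7 peak of DMSO is set against 2 inflachromene peaks, and the KAT5 summits are 596 bp apart.

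The RefSeq promoter windows (build GRCh38.p14) of the strongest member, KAT7, and of both members with a ratio over 1, KAT5 and CREBBP, are given to show the sequence that the peaks cover. The window listed for KAT5 belongs to a start further inside the gene, relative to which the DMSO summit lies at −264 bp. They lie at chr17:49788431-49788730 (plus strand), chr11:65712002-65712301 (plus strand) and chr16:3880664-3880963 (minus strand) and run 5′ to 3′ along the gene. The peaks covered all 300 bases at KAT7 and KAT5 in both libraries, and 205 bases in DMSO and 175 in inflachromene at CREBBP. Capitals mark matches on either strand to any of 11 motifs, spelled out in the next paragraph.
KAT7: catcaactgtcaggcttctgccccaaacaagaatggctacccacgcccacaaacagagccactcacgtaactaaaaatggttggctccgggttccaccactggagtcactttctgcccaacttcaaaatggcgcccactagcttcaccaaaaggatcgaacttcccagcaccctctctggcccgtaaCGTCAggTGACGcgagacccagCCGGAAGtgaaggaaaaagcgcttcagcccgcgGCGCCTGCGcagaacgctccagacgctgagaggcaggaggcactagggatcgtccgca
KAT5: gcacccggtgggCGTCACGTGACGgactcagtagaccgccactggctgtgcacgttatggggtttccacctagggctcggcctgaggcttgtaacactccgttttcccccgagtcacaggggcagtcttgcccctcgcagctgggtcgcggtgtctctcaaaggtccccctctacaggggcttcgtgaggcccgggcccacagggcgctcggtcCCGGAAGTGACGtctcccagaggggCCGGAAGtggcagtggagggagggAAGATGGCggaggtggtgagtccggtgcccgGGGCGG
CREBBP: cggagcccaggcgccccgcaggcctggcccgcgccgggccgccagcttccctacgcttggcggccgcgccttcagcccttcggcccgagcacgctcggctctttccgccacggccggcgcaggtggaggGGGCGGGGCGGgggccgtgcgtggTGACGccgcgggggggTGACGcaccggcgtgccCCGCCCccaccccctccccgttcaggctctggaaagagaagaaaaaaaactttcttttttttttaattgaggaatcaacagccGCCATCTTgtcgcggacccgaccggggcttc

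A match here describes letters and is no evidence of a factor. The cyclic AMP response core TGACG, which the longer CRE motif TGACGTCA contains, was in the windows of KAT7, KAT5, CREBBP and KAT2A, 4 of the 7 members with a window, and in 27.9% of 22155 windows of protein-coding genes. In the first 3 of these genes it lay under a peak in both libraries. The ETS motif CCGGAAG was in KAT7 and KAT5 (12.8% of all windows), in both under a peak. The Sp/KLF motif GGGCGG was in KAT2B, KAT5 and CREBBP (56.3%), and the YY1 motif AAGATGGC in KAT5 and CREBBP (3.53%). The YY1 match lay under a peak in both libraries at KAT5 and under neither at CREBBP. KAT7 alone matched the NRF1 motif GCGCNTGCG (9.55%) and KAT5 alone the E-box CACGTG (8.34%), which overlaps TGACG matches there. In KAT5 an ETS match also runs into a TGACG match. None of the 7 had a match to the AP-1 motif TGANTCA (6.16%), the full CRE (2.26%), the NF-Y motif CCAAT (34.6%), the ZBTB33 motif TCTCGCGAG (0.934%) or a TATA box, spelled TATAAA (9.47%). Neither the EP300 nor the NCOA3 window held a match to any of the 11 motifs.

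The p160 members differed in where their peaks lay relative to the annotated gene ends. NCOA3 on chromosome 20 (47501887 to 47656872, plus strand) had a peak over its start, with 24 fragments in DMSO (15.4 to 35.7) and 18 in inflachromene (10.7 to 28.4). The ratio was 0.750 (0.384 to 1.44), and the summits lay 30 and 90 bp before the start. NCOA2, the longest member at 347 kb, had no peak within 1.5 kb of an end. Its peak lay inside the gene on chromosome 8, 54258 bp from the nearer end in DMSO and 54270 bp in inflachromene, with 39 (27.7 to 53.3) and 33 (22.7 to 46.3) fragments. The ratio there was 0.846 (0.516 to 1.38), and the fold enrichments were 10.2 and 9.87. NCOA2 has no RefSeq promoter window here, so whether this peak lies at a start inside the gene was not checked.

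Peaks inside genes were thus found in 2 of the 10 members, NCOA2 and KAT2B, in both libraries. Among 18064 protein-coding genes longer than 3 kb, 15.3% had one in DMSO and 10.5% in inflachromene. Per 100 kb of gene, this is 0.288 DMSO peaks in NCOA2 and 0.878 in KAT2B. Both DMSO peaks were overlapped by an inflachromene peak, as were 52.4% of all DMSO peaks inside genes, and both inflachromene peaks by a DMSO peak, as were 85.1% of all. No peak was called inside EP300, CREBBP or the remaining 6 members.

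The remaining MYST members, KAT8 and KAT6A, each had a single peak at 1 end with closely placed summits. KAT8, the acetyltransferase of the MSL and NSL complexes, lies on chromosome 16 (31117664 to 31131393). It had 48 fragments in DMSO (35.4 to 63.6) and 39 in inflachromene (27.7 to 53.3), with a ratio of 0.812 (0.519 to 1.27). The summits lay 124 and 149 bp outside the gene, and BCKDK has an end within the same window. KAT6A on chromosome 8 (41929479 to 42051987) had the peak with the lowest local background, 1.10 fragments in DMSO and 0.853 in inflachromene. It held 21 fragments (13.0 to 32.1) and 15 (8.40 to 24.7), a ratio of 0.714 (0.343 to 1.45), and the fold enrichments were 10.5 and 8.63. By fold enrichment KAT6A thus stood above CREBBP, KAT2B, KAT5 and NCOA3 in DMSO, although of these only CREBBP had a lower pileup.

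In order of DMSO pileup, KAT7, EP300, KAT8 and KAT5 led, and NCOA3, KAT2B, KAT6A and CREBBP followed at 20 to 24 fragments with widely overlapping intervals. The interval of EP300 overlapped those of KAT7 and KAT8, its neighbours in that order. In inflachromene EP300 took a place below KAT7, KAT5 and KAT8. The interval of the ratio lay wholly under 1 at EP300 and KAT7, and wholly under the ratio of fragment numbers at EP300 alone. No share over all matched genes is given for this rule, and the members were chosen with their pileups known. The interval of KAT7 included the general ratio of 0.822 and that of EP300 did not. For the other 6 genes it included both 1 and 0.822.

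The genes with the pair of pileups nearest to that of EP300, by distance on the log2 scale over the 2 libraries, were PJVK and PRKRA (61 and 27 fragments each), SLC6A6 (63 and 31) and SNX14 (57 and 29). For CREBBP, the gene with the highest ratio, NCAPD3, STOML2, VPS26B and YARS2 had the same pileups, 20 and 25. With 2 libraries this likeness describes 2 numbers and no more.

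Other genes of the acetylation pathway were described from 7 lists of 115 genes in all, which do not include the members. Of these, 79 had an end peak in both lists, 14 in DMSO alone, 1 in inflachromene alone and 21 in neither. Thus 14 of the 93 with a DMSO peak had no inflachromene peak, beside 20.1% of all genes with one. The DMSO list was the longer. With lists of equal length, 8 of the genes were found in DMSO alone and 6 in inflachromene alone. Over the 79 genes with a matched peak the median ratio was 0.812, and 14 were lower by 1.5-fold or more and none higher by as much, beside 18.7% and 1.17% of all genes.

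The partners of KAT2A and KAT2B in the SAGA and ATAC complexes, 21 genes, had 15 in both lists with a median ratio of 0.822. YEATS2, MBIP and DR1 had a peak in DMSO alone, with 21, 19 and 15 fragments. The ratio was lowest at TADA3 (0.660) and TADA2A (0.667), which encode adaptors of the acetyltransferase module, and highest at SGF29 (1.07) and ZZZ3 (1.00). Both of these low peaks were shared with a neighbour, ARPC4 for TADA3 and ACACA for TADA2A.

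Of the 16 NuA4/TIP60 partners of KAT5, 12 had a peak in both lists with a median ratio of 0.825, and MEAF6 in DMSO alone (17 fragments). EPC2 held 50 fragments in DMSO and 30 in inflachromene (0.600, 0.368 to 0.962) and MBTD1 29 and 18, whereas ACTL6A held 73 and 74 and ING3 31 in both. The MBTD1 peak also lay at an end of UTP18. Of the 8 partners of KAT6A and KAT7, 5 had a peak in both lists with a median ratio of 1.00, and JADE1 in DMSO alone (21 fragments). BRPF3, a scaffold subunit, held 39 and 22 fragments (0.564, 0.319 to 0.975), and BRPF1, whose peak also lay at an end of CPNE9, followed at 0.846. ING5, a reader subunit whose peak also lay at an end of DTYMK, held 24 and 34 (1.42, 0.816 to 2.50), and JADE3 had a ratio of 1.15. Of the 10 MSL and NSL partners of KAT8, 7 had a peak in both lists, and MSL3 in DMSO alone (14 fragments). All 7 had a ratio under 1, as did 77.3% of all matched genes. Their median of 0.712 was the lowest of the lists, but rests on these 7 genes. KANSL1 held 58 and 35 fragments (0.603, 0.385 to 0.934) and HCFC1 36 and 24 (0.667, 0.380 to 1.15). The highest ratios were 0.750 at MSL2 and 0.745 at PHF20.

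**Figure D4:**
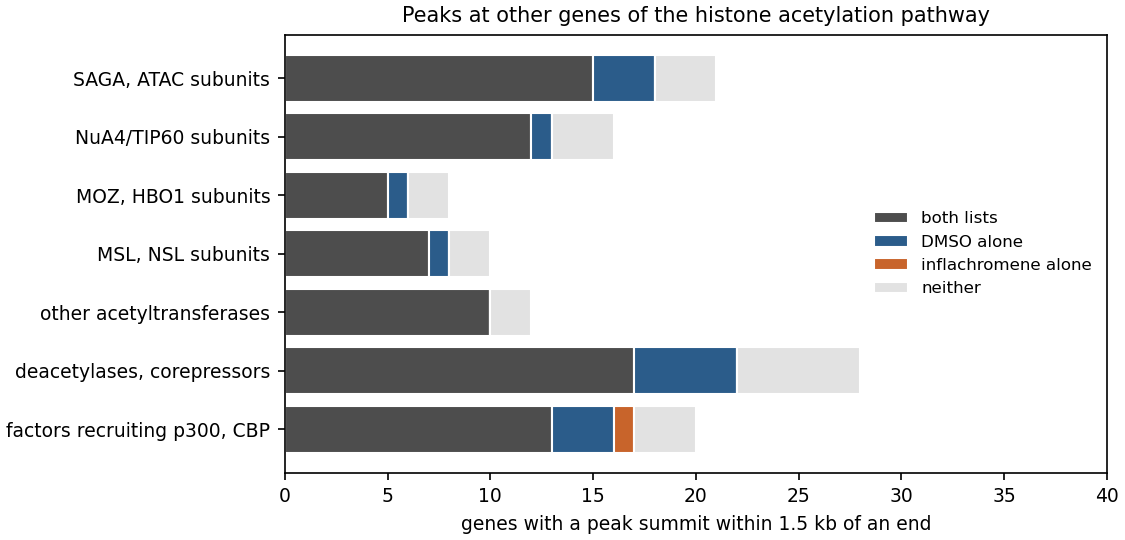
Number of genes (horizontal axis) in each of the 7 lists of the acetylation pathway with a peak summit within 1.5 kb of an end in both lists (dark grey), in DMSO alone (blue), in inflachromene alone (orange) or in neither (light grey). A peak in both lists is the most frequent class in each of the 7 lists, from 17 of 28 deacetylase and corepressor genes to 10 of 12 other acetyltransferase genes by share, and 1 gene, CITED2, was found in inflachromene alone. The full peak lists were used, of which that of DMSO is the longer.

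Of 12 further genes, for other acetyltransferases and the p160 coactivator NCOA1, 10 had an end peak in each library, with a median ratio of 0.808, and the other two in neither. NCOA1 held 27 and 16 fragments (0.593, 0.298 to 1.14). NAA50, whose peak also lay at an end of ATP6V1A, had a ratio of 0.606, and the highest were ESCO1 (1.14) and NAA40 (1.00). Of 28 deacetylase and corepressor genes, whose products act against the acetyltransferases, 17 had a peak in both lists with a median ratio of 0.846. Peaks in DMSO alone included those at HDAC3 (17 fragments), HDAC10 (18), TBL1X (12) and GPS2 (25); the peaks of HDAC3, HDAC10 and GPS2 were shared with a neighbour. HDAC5 had the lowest ratio (0.571) and SIN3A followed (0.717), and NCOR1 (1.17), which encodes the corepressor that recruits HDAC3, and HDAC6 (1.15) had the highest. The SIN3A peak also lay at an end of MAN2C1.

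Of 20 transcription factors and cofactors known to work with p300 and CBP, 13 had a peak in both lists with a median ratio of 0.844. CRTC1 (10 fragments), CRTC3 (13) and IRF3 (23) had a peak in DMSO alone, the last also at an end of BCL2L12. CITED2, whose product binds p300 and CBP, had 18 fragments in inflachromene alone. MAML2, a Notch coactivator gene, held 52 and 32 fragments (0.615, 0.383 to 0.974) and ATF1 47 and 29. CREM, whose peak also lay at an end of CUL2, held 38 and 42 (1.11, 0.696 to 1.76).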

How the data were processed

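ChIPmentation of PANC-1 cells gave 1 peak list for DMSO and 1 for inflachromene. The processing notes of the submitters name MACS2, deepTools 3.5.6 and the build hg38. The sources used here give no MACS2 version, aligner, duplicate handling, control or pooling. The authors deposited, per peak, an integer score (not used), a fold enrichment, −log10 p, −log10 q and the summit's offset. The fold enrichment was read as the ratio of summit pileup to local background, with 1 added to each. No DMSO peak had a −log10 q under 3.02 and no inflachromene peak one under 3.01.

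The number of fragments over each summit was recovered as a whole number. For it, (pileup + 1)/(background + 1) gave the deposited fold enrichment and the Poisson tail gave the deposited −log10 p within 0.001. This succeeded for all 15186 and 10836 peaks. The step was also run on rows simulated with the same formulas. That checks the inversion only, not whether these formulas produced the deposited values. The pileup is an inference, not a deposited count. The lowest pileup was 7 in both lists. Fragment numbers were inferred from the lowest background divided by fragment lengths of 152.4 and 165.7 bp, read from the even steps of the background. Fragments carry no molecular identifiers, so intervals cover counting error only.

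Genes were placed with the RefSeq table of GRCh38.p14, which shares hg38's coordinates; all members matched. Each list's own summits within 1.5 kb of either annotated end counted as end peaks, and other summits inside a gene as inner ones. Peaks matched where they overlapped by at least 1 bp, and a gene's ratio was taken at its position with the highest summed pileup. Strand came from the RefSeq promoter table, which matched 7 of the 10 members (not KAT6A, KAT8 and NCOA2). With 1 sample per treatment no test was made. The members, lists and rules were chosen with earlier results of these data known. All 10 members were named, and in each further list the genes found in 1 list alone and the 2 lowest and 2 highest ratios, except some genes that are not reported here. Python 3.11.15, SciPy 1.17.1 and pandas 2.3.3 were used. Other windows, thresholds, overlap rules and scalings were tried.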

Additional observations from a re-analysis of the deposited data

How the results depend on the processing

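Each of the 8 members kept an end peak in both lists with a 2500 bp window, at −log10 q of at least 5, with lists of equal length and with overlapping peaks counted. With 1000 bp EP300, and with 500 bp EP300 and KAT5, changed class, leaving 7 and 6 in both lists. Divided by the median ratio of shared peaks, the members' median ratio was 0.938, 5 were lower, 2 higher and KAT2B equal. With this division 1, CREBBP, was higher by 1.5-fold, although its undivided ratio was 1.25 with an interval of 0.667 to 2.37. Shares over all matched genes are not given for this scaling, so these counts stand without a comparison. EP300 stayed lower by 1.5-fold under each scaling tried and by fold enrichment. With summits matched within 250 bp, KAT5 had a ratio of 0.870, since its start peak drops out and the peak past its other end takes its place. With 50% reciprocal overlap KAT7 had no matched peak and the median of the other 7 was 0.812; with summits within 250 bp KAT7 kept its ratio of 0.671. With lists of equal length, 8 genes of the further lists were found in DMSO alone and 6 in inflachromene alone. At 15 to 73 fragments, counting error alone spans most ratios. No paired analysis was possible because each treatment had 1 sample.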

Other observations

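Peaks outside the genes, between 1.5 kb and 50 kb from a member, entered no comparison above. EP300 had 2 in each library, the nearer 17512 bp away with 17 fragments in DMSO and 17493 bp away with 15 in inflachromene. The peak before its start held 63 and 28. CREBBP had 1 in each, 7474 bp away with 27 fragments and 7413 bp away with 25. KAT2B had 1 in each, with 63 and 58 fragments, more than any peak at the gene itself, and KAT7 had 1 with 77 and 49 fragments about 24 kb away, alongside a further DMSO peak. KAT8 had 6 in DMSO and 7 in inflachromene. KAT5 had a peak of 27 fragments 5607 bp away in DMSO that was not called in inflachromene, and NCOA3 one of 18 fragments 37300 bp away in DMSO alone. KAT6A and NCOA2 had none in either library. KAT2A, without a peak of its own, had 1 at 33727 bp with 34 fragments in DMSO and 1 at 33728 bp with 23 in inflachromene. No gene is assigned to these peaks.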
